A study of Mus musculus with 10 samples.

Results

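Kinesins and dyneins are the motor proteins that walk along microtubules, and their genes were followed in the neocortex of young adult and old mice. Members were all genes whose symbol in the GRCm38.p6 mouse gene table is Kif followed by a digit, or begins with Klc, Dync or Dynl. The gene table held 62 such symbols, 58 of them protein coding. Of these, 52 had at least 1 probe set that belonged to no other gene, among 17876 genes with a probe set. A probe set is a group of short probes on the array that together report 1 transcript or a part of it, and the 52 genes had 126 probe sets. The other 10 symbols, which included Kif26a, Kif19a, Kif28 and Dynlt1a, were not analysed here. Symbols such as Dync2i1, Dync2i2, Dynlt2, Dynlt2b, Dynlt4 and Dynlt5 also fit the rule but were not in that gene table, so they were not members. Members were taken by symbol and not by expression level, but the rule was chosen with earlier results of these data known.

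Kinesins mostly carry cargo outward along axons, while cytoplasmic dynein 1 carries cargo back towards the cell body. A neuron depends on both, since synaptic vesicle precursors, mitochondria, receptors and endosomes must cross long distances between the cell body and the synapses. Other kinesins are machines of cell division that position chromosomes, build the spindle and complete the separation of daughter cells, and most cells of the adult neocortex do not divide. The motor genes were therefore described as 24 transport motors (the kinesin-1, kinesin-2, kinesin-3 and neuronal kinesin-4 families and cytoplasmic dynein 1), 12 mitotic kinesins, and the remaining dynein genes and kinesins.

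The animals were male B6C3F1 mice, which are B6xC3 F1 hybrids without an engineered allele named in the labels. There were 5 mice aged 5 months and 5 aged 30 months. All of them were housed 1 to a cage and fed the AIN-93M control diet, so the ages shared strain, sex and diet. Messenger RNA purified from frozen neocortex of each mouse was labelled and hybridized to 1 Affymetrix Mouse 430 2.0 array. The labels number the mice 1 to 5 at 5 months and 2 to 6 at 30 months, and values below follow that order.

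The deposited values were linear signals for 45037 probe sets, with array medians between 114.5 and 122.6. All 12 neuronal markers chosen for the tissue were bright enough to be tested, and their summed signal lay between 52420 and 56468 at 5 months and between 53392 and 56589 at 30 months. A probe set was tested where its mean log2 signal over the 10 arrays exceeded 6.89, the overall median, and each gene was read from its brightest tested probe set. This gave 11963 genes, of which 4068 were higher (34.0%) and 1466 lower (12.3%) at 30 months by limma with a Benjamini-Hochberg adjusted p under 0.05. Differences are given as log2 of 30 over 5 months. The neocortex was measured as a bulk tissue, so fewer cells of a type and less RNA per cell cannot be told apart.

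Of the 52 motor genes, 35 passed the filter and 17 did not. Among the 35 tested, 8 were higher at 30 months, 8 were lower and 19 did not pass the test. Their median log2 change was −0.03, beside 0.08 over all genes tested. The 8 higher genes were Dync1h1, Dync1li1, Dync1li2, Klc2, Kif3c, Kif1a, Kif13a and Kif21b, and all of them are transport motors. The 8 lower genes were Dync1i2, Kif17 and Kif13b among the transport motors, the mitotic kinesins Kif4, Kif22 and Kif18b, and Kif9 and Kif24. Over all genes tested, 24.5% had every 30-month array above every 5-month array and 5.75% had every one below. For the motor genes those counts were 6 and 7 of 35.

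**Figure D1:**
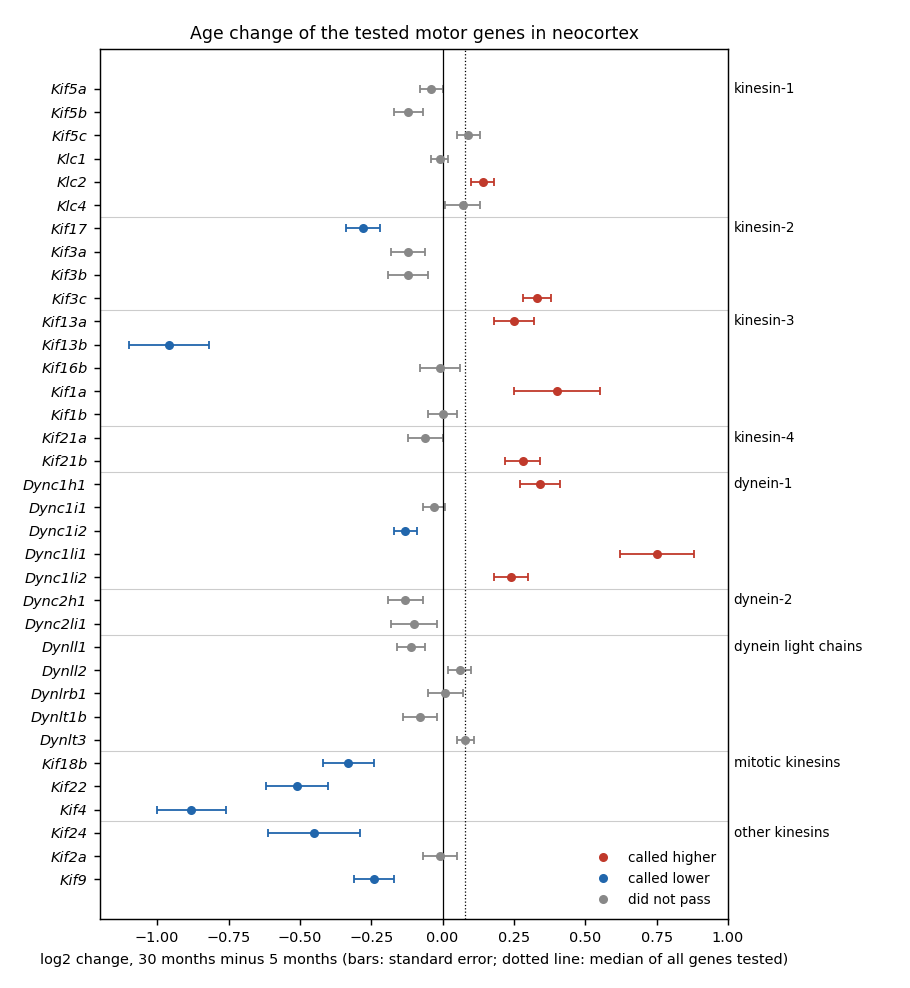
Log2 change of the 35 tested motor genes, 30 months minus 5 months, by family, with the standard error as bars, 5 arrays at each age. Red points were called higher, blue points called lower and grey points did not pass. The dotted line is the median of all genes tested, 0.08, and the 3 tested mitotic kinesins lie between −0.88 and −0.33 while the transport motors spread from −0.96 to 0.75.

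Of 22 tested transport motors, 8 rose and 3 fell with the deposited scaling, shares near the 34.0% and 12.3% over all genes, with a median log2 change of 0.00 and 11 that did not pass. The transport counts were 6 higher and 8 lower under quantile normalization and 4 higher and 10 lower with a common median of the tested genes on all arrays, both described below. Of the 12 mitotic kinesins only 3 exceeded the filter, and all 3 fell under each of these scalings, with a median of −0.51 as deposited. The summed signal of the 3 tested mitotic kinesins was 1127 to 1367 at 5 months and 830 to 1059 at 30 months, while that of the 22 transport motors was 47026 to 50850 and 47619 to 50621. The summed transport signal overlapped almost fully between the ages, and that of the mitotic genes did not overlap. All 3 mitotic genes were called lower themselves, so their sum is no separate evidence. The transport sum is weighted to its brightest genes, such as Kif5a and Klc1, which did not pass with the deposited scaling.

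How the arrays were scaled decided how many transport motors counted as lower. Under quantile normalization 22.9% of all genes were higher and 20.4% lower, and the motor genes gave 6 higher and 16 lower, with a median change of −0.10 beside 0.00 over all genes. When the tested genes were given a common median on all arrays, 21.2% of all genes were higher and 23.9% lower, and the motor genes gave 4 higher and 19 lower, with a median of −0.13 beside −0.02 over all genes. Dync1h1, Dync1li1, Kif3c and Kif21b stayed higher under these 3 scalings, while Kif1a and Klc2 were lost under both others and Dync1li2 and Kif13a under the common median. All 8 genes called lower stayed lower under these 3. Dync1i2 lost its call (−0.11, adjusted p = 0.0774, limma) when each array was shifted to an equal median over all probe sets, which kept the other 15 calls. The lower calls gained by quantile normalization were Dync1i1, Dync2h1, Dynlt1b, Kif21a, Kif2a, Kif3a, Kif3b and Kif5b, whose changes with the deposited scaling lay between −0.13 and −0.01. The common median gained the same genes apart from Kif2a, and in addition Dync2li1, Dynll1, Kif5a and Klc1.

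**Figure D2:**
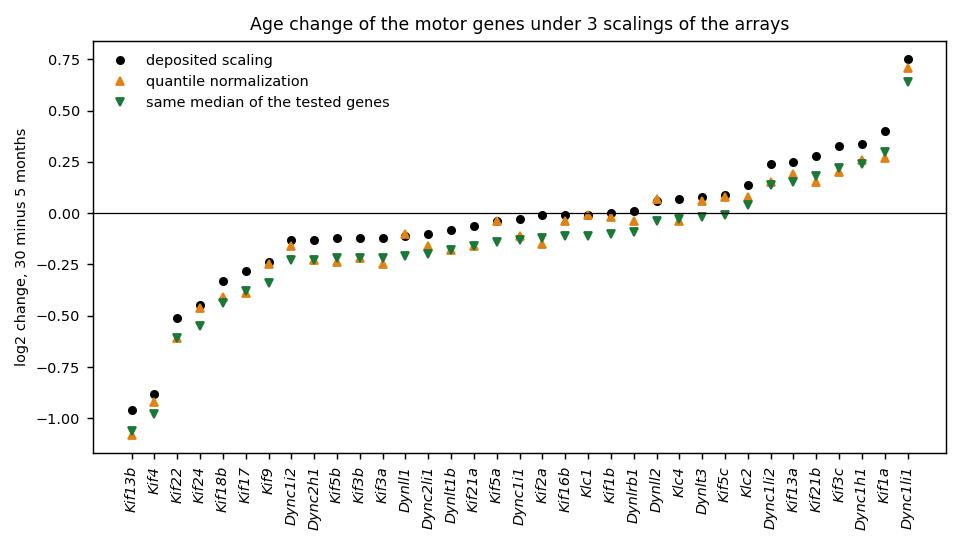
Log2 change of the 35 tested motor genes, 30 months minus 5 months, with the deposited scaling (black circles), after quantile normalization (orange triangles) and with a common median of the tested genes on all arrays (green triangles). Genes are ordered by the deposited change; most of them shift downwards together, and the genes at both ends, from Kif13b at −0.96 to Dync1li1 at 0.75, keep their sign.

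Cytoplasmic dynein 1 is built on a heavy chain that makes the steps, intermediate chains that tie it to dynactin, and light intermediate chains that bind the cargo adaptors. In the old neocortex 3 of its 5 genes rose and 1 fell, where 34.0% and 12.3% of all genes did. The heavy chain gene Dync1h1 gave signals of 2568, 2218, 2155, 2232 and 1887 in the 5-month mice and 3007, 2873, 2511, 2765 and 2773 in the 30-month mice. Only 5-month mouse 1 overlapped the old group, where it lay just above mouse 4. The log2 change was 0.34 ± 0.07 (SE, n = 5 and 5), a fold of 1.26 with an adjusted p of 0.00211 in limma.

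Both light intermediate chain genes were higher. Dync1li1 gave 138, 178, 233, 183 and 163 at 5 months and 317, 276, 294, 356 and 248 at 30 months. Every old mouse lay above every young one, and the log2 change was 0.75 ± 0.13 (SE), a fold of 1.68 with an adjusted p of 0.00052 in limma. This was the largest rise among the 35 tested motor genes. Dync1li2 gave 1972, 2287, 2262, 2190 and 2077 at 5 months and 2532, 2578, 2290, 2652 and 2677 at 30 months. The groups again did not overlap, although 30-month mouse 4 lay only just above the young mice, and the log2 change was 0.24 ± 0.06 (SE; adjusted p = 0.00365, limma).

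The intermediate chain genes did not follow. Dync1i2, whose product is found in many cell types, gave 3340, 3374, 3316, 3368 and 3343 at 5 months and 2977, 3107, 3304, 3026 and 2942 at 30 months. The young mice were close to one another, the old mice all lay below them, and 30-month mouse 4 came nearest. The log2 change was −0.13 ± 0.04 (SE), with an adjusted p of 0.0182 in limma. Dync1i1, the intermediate chain gene most used by neurons, spanned 2534 to 2797 at 5 months and 2449 to 2688 at 30 months, and the overlapping groups gave a change of −0.03 (adjusted p = 0.631, limma).

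Ratios of 2 genes on the same array do not depend on a constant factor applied to that array, although quantile normalization can change them, and they show whether subunits changed unequally. They were taken with the deposited scaling. For the families of transport motors, 42 such ratios were compared between the ages by a two-sided exact permutation test, whose smallest p is 0.00794 with 5 arrays against 5. In 18 of the 42 the ages did not overlap, which gives that p, or 0.0185 after Benjamini-Hochberg adjustment over the 42 ratios. The ratios share genes and so are not independent of one another. The same count was not taken over other pairs of genes, so it describes these ratios and is no trait of motor genes. Dync1h1 over Dync1i1 rose by 0.36 on the log2 scale (p = 0.00794, exact permutation test; higher in all 5 old mice than in any young one). The ratio of Dync1i2 over Dync1li1 fell by 0.87 and that of Dync1i2 over Dync1li2 fell by 0.36, each with an exact permutation p of 0.00794. Dync1h1 over Dync1li2 changed by 0.10, which did not exceed the spread between mice (p = 0.381, exact permutation test).

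**Figure D3:**
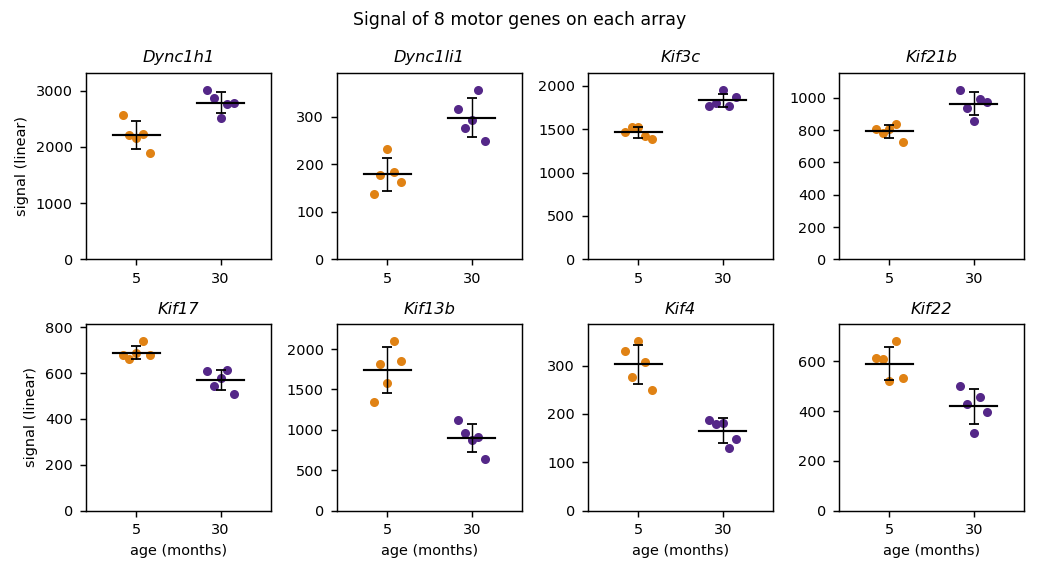
Linear signal of 8 motor genes in each mouse at 5 months (orange) and 30 months (purple), with the mean as a line and the SD as a bar, n = 5 at each age. The old mice lie above the young mice in Dync1li1, Kif3c and Kif21b and below them in Kif17, Kif13b, Kif4 and Kif22, and in Dync1h1 the groups overlap in 1 young mouse, with 2568 against a lowest old signal of 2511.

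The dynein light chains, small proteins that also serve partners outside the motor, showed no call with the deposited scaling. Of 5 tested light chain genes, Dynll1, Dynll2, Dynlrb1, Dynlt1b and Dynlt3, none passed, and their changes lay between −0.11 and 0.08, with adjusted p from 0.0806 to 0.894 in limma. Dynll1 ranged from 5134 to 6251 at 5 months and from 5153 to 5756 at 30 months. Dynll2, its close relative, ranged from 5829 to 6548 and from 5946 to 6661. In both genes the old mice lay within or close to the range of the young mice. Cytoplasmic dynein 2 returns cargo along cilia, and its heavy chain gene Dync2h1 (526 to 596 at 5 months, 471 to 556 at 30 months) and light intermediate chain gene Dync2li1 (238 to 320 and 253 to 291) changed by −0.13 and −0.10 without passing the test (adjusted p = 0.118 and 0.331, limma).

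Kinesin-1 is the main motor of fast outward transport and joins heavy chains, encoded by Kif5a, Kif5b and Kif5c, with light chains encoded by Klc1 to Klc4. Of its 6 tested genes 1 rose and none fell, where 34.0% and 12.3% of all genes did. The gene that rose was Klc2, with 2570, 2606, 2715, 2663 and 2511 at 5 months and 3052, 2827, 2805, 2827 and 2903 at 30 months. The ages were separated by a narrow gap, and the log2 change of 0.14 ± 0.04 (SE; adjusted p = 0.0115, limma) was among the smallest that passed. Under quantile normalization it became 0.08 (adjusted p = 0.136, limma).

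Read from their brightest probe sets, the heavy chain genes differed little between the ages. Kif5a, which is confined to neurons, gave 9067, 9451, 9197, 9118 and 8999 at 5 months and 9406, 8939, 8156, 9045 and 9088 at 30 months, so that only 30-month mouse 4 stood clearly below the young range (−0.04 ± 0.04, SE; adjusted p = 0.378, limma). Kif5b, which is used by most cell types, gave 1556, 1733, 1614, 1504 and 1556 at 5 months and 1413, 1430, 1482, 1497 and 1502 at 30 months. Every old mouse lay below every young one by a slight margin, and the change of −0.12 ± 0.05 (SE) missed the threshold (adjusted p = 0.0625, limma). Under quantile normalization Kif5b was called lower, at −0.24 with an adjusted p of 0.00147 in limma. Kif5c, also neuronal, gave 4348, 4551, 4358, 4369 and 4291 at 5 months and 4720, 4775, 4328, 4655 and 4867 at 30 months, with a change of 0.09 ± 0.04 (SE; adjusted p = 0.0638, limma). In Kif5c 4 of 5 old mice exceeded all young mice and mouse 4 did not.

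Within an array the heavy chains, read from these probe sets, nevertheless shifted against one another. Kif5a over Kif5c fell by 0.13 on the log2 scale and Kif5b over Kif5c fell by 0.21, each with an exact permutation p of 0.00794 and no overlap between the ages. Another tested probe set of Kif5c, 1422945_a_at, itself fell (−0.45, adjusted p = 6.07e-05, limma). Ratios of Kif5a and Kif5b to that probe set were not taken, so these 2 falls hold only for the brightest probe set of Kif5c. Kif5a over Kif5b changed by 0.08, within the spread between mice (p = 0.159, exact permutation test). Klc1 ranged from 6314 to 7021 at 5 months and from 6432 to 6789 at 30 months (−0.01, adjusted p = 0.781, limma). Klc4 ranged from 488 to 556 and from 525 to 591 (0.07, adjusted p = 0.353, limma), and Klc3 lay below the filter.

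Kinesin-2 contains the heterotrimeric motor, in which Kif3a pairs with Kif3b or Kif3c, and the homodimeric Kif17, which carries NMDA receptor vesicles along dendrites. Kif3c rose and Kif17 fell in the old neocortex. Kif3c gave 1464, 1522, 1522, 1423 and 1388 at 5 months and 1774, 1805, 1951, 1768 and 1872 at 30 months. The gap between the groups was wider than the range within either, and the log2 change was 0.33 ± 0.05 (SE), a fold of 1.25 with an adjusted p of 0.000172 in limma. A second, dimmer probe set of Kif3c, 1434947_at, gave 1149, 1140, 1097, 1134 and 996 at 5 months and 1234, 1201, 1210, 1239 and 1138 at 30 months. There 30-month mouse 6 overlapped the young mice, and the change of 0.13 ± 0.05 (SE) did not pass (adjusted p = 0.0741, limma; −0.01 after quantile normalization). Kif17 gave 678, 662, 686, 739 and 681 at 5 months and 611, 542, 578, 613 and 507 at 30 months. All old mice lay below all young mice, with a change of −0.28 ± 0.06 (SE; fold 0.826, adjusted p = 0.00343, limma). A second probe set of Kif17, 1419827_s_at, ranged from 536 to 628 at 5 months and from 496 to 563 at 30 months. Its change of −0.09 did not pass (adjusted p = 0.263, limma), although it was called lower after quantile normalization (−0.19, adjusted p = 0.0206, limma).

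Read from their brightest probe sets, the partners of Kif3c did not rise with it. Kif3a ranged from 929 to 1065 at 5 months and from 857 to 974 at 30 months, and Kif3b from 538 to 684 and from 513 to 588, both with a change of −0.12 that did not pass (adjusted p = 0.0992 and 0.211, limma), although both were called lower under quantile normalization and with the common median of the tested genes. The ratio of Kif3a to Kif3c fell by 0.44 on the log2 scale, that of Kif3b to Kif3c by 0.44 and that of Kif17 to Kif3c by 0.60. These ratios use the brightest probe set of each gene. In each ratio every old mouse lay below every young one (p = 0.00794, exact permutation test). The second tested probe set of Kif3b, 1450074_at, changed by 0.18 and did not pass (adjusted p = 0.138, limma), and ratios with it were not taken. Kif3a over Kif3b changed by 0.00 (p = 0.984, exact permutation test). Kifap3, the subunit that links the Kif3 pair to cargo, changed by 0.02 (adjusted p = 0.782, limma).

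**Figure D4:**
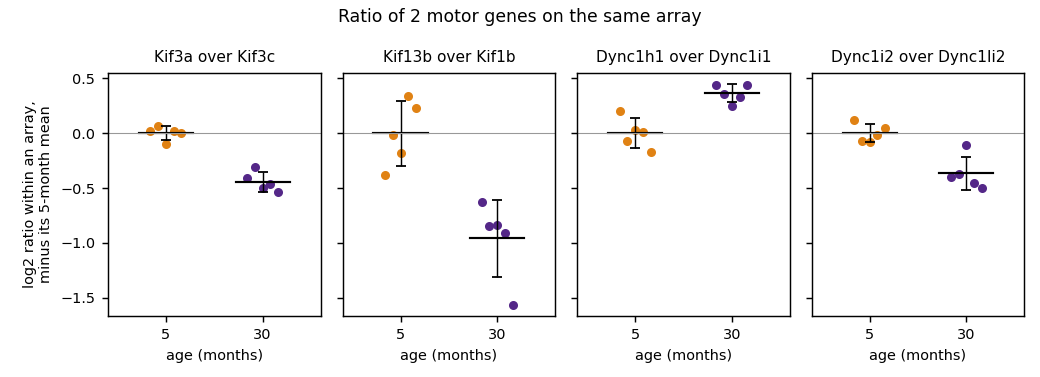
Log2 ratio of 2 motor genes on the same array, with the mean of the 5-month mice set to 0, for each mouse at 5 months (orange) and 30 months (purple), with the mean as a line and the SD as a bar, n = 5 at each age. Kif3a over Kif3c, Kif13b over Kif1b and Dync1i2 over Dync1li2 are lower in all old mice, by 0.44, 0.96 and 0.36 on average, and Dync1h1 over Dync1i1 is higher, by 0.36.

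Kinesin-3 motors are fast carriers of vesicles and organelles, and they held 2 rises and the strongest fall among the 35 tested motor genes. Kif13b, whose product binds the scaffold protein Dlg, gave 1345, 1816, 1581, 2095 and 1848 at 5 months and 1115, 964, 870, 912 and 632 at 30 months. No old mouse reached the lowest young one, and mouse 6 at 30 months was the lowest. The log2 change was −0.96 ± 0.14 (SE), a fold of 0.515 with an adjusted p of 0.00015 in limma. The 3 other probe sets of Kif13b lay below the filter.

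Kif1a carries synaptic vesicle precursors down the axon. It gave 822, 1273, 1202, 713 and 891 at 5 months and 1125, 1472, 1134, 1185 and 1440 at 30 months. The young mice spread widely, mice 2 and 3 lay among the old mice, and mice 1, 4 and 5 lay below them. The change of 0.40 ± 0.15 (SE; adjusted p = 0.0372, limma) did not pass when 5-month mouse 1, 4 or 5 or 30-month mouse 3, 5 or 6 was left out (adjusted p = 0.0814, 0.0929, 0.0741, 0.0902, 0.0509 and 0.083, limma), nor under quantile normalization (0.27, adjusted p = 0.152, limma). A second probe set of Kif1a gave 484, 650, 730, 506 and 509 against 772, 996, 765, 774 and 932, where all old mice were above all young ones.

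Kif13a, which moves vesicles with mannose 6-phosphate receptors, gave 304, 289, 257, 262 and 270 at 5 months and 307, 373, 311, 329 and 329 at 30 months. The lowest old mouse was barely above the highest young mouse, and the change was 0.25 ± 0.07 (SE; adjusted p = 0.0116, limma). Kif1b, a carrier of mitochondria and synaptic vesicle precursors, ranged from 3385 to 3955 and from 3349 to 4007, a fold of 0.999 (adjusted p = 0.985, limma). Kif16b, a motor of early endosomes, ranged from 223 to 249 and from 218 to 266, a fold of 0.996 (adjusted p = 0.951, limma). Measured on the same array, Kif13b over Kif1b fell by 0.96 and Kif13a over Kif13b rose by 1.21, without overlap between the ages (p = 0.00794 each, exact permutation test).

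Kif21a and Kif21b are kinesin-4 motors of axons and dendrites. Kif21b rose, with 806, 780, 807, 840 and 727 at 5 months and 1048, 937, 857, 995 and 976 at 30 months. The groups did not overlap, 30-month mouse 4 was nearest to the young mice, and the change was 0.28 ± 0.06 (SE; fold 1.21, adjusted p = 0.00289, limma). Kif21a ranged from 1862 to 2233 and from 1845 to 2086 (−0.06, adjusted p = 0.448, limma). Kif21a over Kif21b, each read from its brightest probe set, fell by 0.34 on the log2 scale (p = 0.0238, exact permutation test; 0.0455 over the 42 ratios). A second probe set of Kif21a, 1455029_at, ranged from 1309 to 1504 at 5 months and from 1453 to 1844 at 30 months. It was called higher (0.22, adjusted p = 0.0232, limma) but not after quantile normalization (0.09, adjusted p = 0.23, limma). The fall of the ratio was not examined with that probe set.

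The mitotic kinesins that could be measured were lower in the old neocortex. Kif4 is a chromokinesin that condenses chromosomes and organizes the spindle midzone, and in mice it has also been described in developing neurons. It gave 331, 277, 350, 307 and 250 at 5 months and 188, 180, 181, 129 and 147 at 30 months. The highest old mouse was well below the lowest young mouse, and the log2 change was −0.88 ± 0.12 (SE), a fold of 0.543 with an adjusted p of 9.58e-05 in limma. This was the smallest p among the 35 tested motor genes.

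Kif22, a chromokinesin that pushes chromosome arms outward, gave 613, 608, 519, 680 and 533 at 5 months and 500, 430, 312, 455 and 395 at 30 months. The groups did not overlap, and the change was −0.51 ± 0.11 (SE; fold 0.704, adjusted p = 0.00284, limma). Its probe set has the suffix x_at, which marks probes that may also bind other transcripts, and its other 2 probe sets lay below the filter. Kif18b, which shortens astral microtubules, gave 423, 470, 490, 380 and 345 at 5 months and 372, 312, 337, 329 and 312 at 30 months. Old mouse 2 lay above young mouse 5, and the other old mice lay below all young mice (−0.33 ± 0.09, SE; adjusted p = 0.0107, limma).

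The other 9 mitotic kinesins lay below the filter. They include Kif11, which drives the spindle poles apart, Kif23, a motor of the central spindle, and Kif2c, a microtubule depolymerase. Kif11 was just outside, with a mean log2 signal of 6.88 and signals of 138, 135, 150, 110 and 123 at 5 months and 124, 103, 108, 109 and 93.4 at 30 months. The old mice tended to the low side of Kif11 but overlapped the young mice. Without the filter 17876 genes were tested, of which 23.2% were higher and 9.81% lower, and of the 12 mitotic kinesins 2 were higher and 4 lower. Kif20b, a motor of late cell division, was lower at 24.4, 24.0, 13.9, 30.1 and 7.7 against 13.2, 5.07, 11.1, 4.85 and 2.29 (adjusted p = 0.0344, limma without the filter). Kif20a, needed for cytokinesis, went the other way with 22.6, 27.7, 9.08, 29.2 and 16.8 against 37.9, 37.5, 37.4, 45.8 and 41.0 (adjusted p = 0.0163), and Kif14 was also higher, with 3 of 5 young mice at the floor of 1. The downward direction of the 3 brighter mitotic kinesins was therefore not shared by every dim one.

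Promoters of cell division genes are known for a short element called the cell cycle genes homology region, with the core letters TTTGAA, and for CCAAT boxes, which bind the factor NF-Y. RefSeq promoters (GRCm38.p6, 250 bases before to 50 after the start) were matched to 42 of the 52 motor genes. The letters TTTGAA, or TTCAAA on the other strand, occurred in 9 of 11 mitotic kinesins with a promoter, all except Kif18a and Kif2b, in 1 of 18 transport motors, Kif1a, and in 17.9% of all 32851 promoters. CCAAT, or ATTGG on the other strand, occurred in 7 of the 11, in 5 of the 18 and in 37.4% of all. Both together occurred in 6 of the 11, in 0 of the 18 and in 6.95% of all. The 6 were Kif4, Kif22 and Kif18b, which fell, and Kif11, Kif14 and Kif23, which lay below the filter. Without the filter Kif14, near the floor, was higher (adjusted p = 0.0295, limma), and Kif11 and Kif23 did not pass. Each motor gene was counted once, while the shares of all are by promoter. Counted by gene over all, the homology core occurred in 5466 of 27025, CCAAT in 11096 and both in 2155. A match is a description of letters and not a binding site, and these matches were counted without a test.

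The promoters of the 3 mitotic kinesins that fell are shown beside that of Kif3c, the transport motor with the smallest p among those that rose, so that the presence and absence of these letters can be read directly. Capitals mark every match of both motifs on either strand, and no matches overlap in these sequences. The windows are chrX:100625815-100626114 on the plus strand for Kif4, chr7:127042371-127042670 on the minus strand for Kif22, chr11:102925075-102925374 on the minus strand for Kif18b and chr12:3364882-3365181 on the plus strand for Kif3c.
Kif4: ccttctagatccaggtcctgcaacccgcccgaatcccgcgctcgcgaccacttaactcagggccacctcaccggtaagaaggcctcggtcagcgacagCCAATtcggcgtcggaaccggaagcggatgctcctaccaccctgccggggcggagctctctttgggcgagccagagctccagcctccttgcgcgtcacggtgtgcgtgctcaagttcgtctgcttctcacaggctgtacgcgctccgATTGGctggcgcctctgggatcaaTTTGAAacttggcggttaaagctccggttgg
Kif22: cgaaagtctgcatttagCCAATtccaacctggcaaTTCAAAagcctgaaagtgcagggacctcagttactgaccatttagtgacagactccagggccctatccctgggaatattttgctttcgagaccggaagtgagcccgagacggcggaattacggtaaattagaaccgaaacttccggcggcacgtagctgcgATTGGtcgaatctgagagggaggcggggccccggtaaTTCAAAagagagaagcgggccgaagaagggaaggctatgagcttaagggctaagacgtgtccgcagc
Kif18b: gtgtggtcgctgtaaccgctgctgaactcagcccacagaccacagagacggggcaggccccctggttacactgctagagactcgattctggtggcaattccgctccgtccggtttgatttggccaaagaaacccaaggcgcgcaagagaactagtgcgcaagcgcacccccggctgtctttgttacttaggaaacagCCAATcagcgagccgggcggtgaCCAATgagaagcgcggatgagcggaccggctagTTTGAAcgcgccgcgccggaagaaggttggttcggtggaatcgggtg
Kif3c: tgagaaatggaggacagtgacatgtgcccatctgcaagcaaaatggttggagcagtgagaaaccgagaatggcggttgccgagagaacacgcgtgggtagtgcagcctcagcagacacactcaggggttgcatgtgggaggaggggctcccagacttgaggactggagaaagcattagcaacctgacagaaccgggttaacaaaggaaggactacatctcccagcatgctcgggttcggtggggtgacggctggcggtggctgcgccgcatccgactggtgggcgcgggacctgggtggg
Kif4 and Kif18b each hold 1 match of the homology core, downstream of the start, at base 20 in Kif4 and at base 4 in Kif18b. Kif22 holds 2 matches on the other strand, 215 and 17 bases upstream. A CCAAT box lies upstream of the core in all 3, nearest at 5 bases from the start in Kif4, 54 in Kif22 and 30 in Kif18b. The Kif3c window holds neither set of letters.

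Of 21 proliferation genes with a probe set, 8 were tested. Of these 4 fell, 4 did not pass and none rose, where over all genes 12.3% fell and 34.0% rose. Their median change was −0.20. Without the filter 2 of the 21 were higher and 5 lower, beside 23.2% and 9.81% of all genes. The genes that fell were Cdc20, an activator of the anaphase-promoting complex (−0.74, adjusted p = 0.000771), the replication helicase subunits Mcm6 (−0.45, adjusted p = 0.00178) and Mcm2 (−0.26, adjusted p = 0.005), and the spindle factor Tpx2 (−0.37, adjusted p = 0.0257), all by limma. The probe set of Cdc20, like that of Kif22, has the suffix x_at and may also bind other transcripts. Pcna (0.06), Ccna2 (0.03), Mcm4 (−0.09) and Bub1b (−0.13) did not pass. The 8 genes summed to 4589 to 5004 at 5 months and 3785 to 4141 at 30 months, without overlap, and Cdc20 alone ranged from 1390 to 2011 at 5 months and from 765 to 1356 at 30 months. Top2a, a defining gene of dividing cells, lay below the filter. The part of these genes in the mitotic kinesin result was not tested.

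Among the remaining kinesins Kif9 and Kif24 fell. Kif9, a motor of motile cilia, gave 188, 183, 203, 205 and 194 at 5 months and 178, 161, 160, 171 and 157 at 30 months. All old mice were lower, by a small margin, with a change of −0.24 ± 0.07 (SE; adjusted p = 0.0145, limma). Kif24, which acts at centrioles and restrains cilium formation, gave 181, 174, 262, 229 and 229 against 236, 128, 141, 164 and 130, with 30-month mouse 2 inside the young range. Its change of −0.45 ± 0.16 (SE; adjusted p = 0.0382, limma) lost its call when 5-month mouse 3, 4 or 5 or 30-month mouse 3, 4, 5 or 6 was left out (adjusted p = 0.0991, 0.0764, 0.0769, 0.0936, 0.0727, 0.0551 and 0.0879, limma). Kif2a, a microtubule depolymerase of growing axons, ranged from 1028 to 1114 and from 980 to 1165 (−0.01, adjusted p = 0.862, limma).

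Kif9 and Kif24 were the dimmest genes inside the filter, with mean log2 signals of 7.49 and 7.51, and Kif26b lay outside at 6.53. Of 13 motile cilia genes with a probe set, 4 were tested, and 1 fell, the dynein arm gene Dnali1 (−0.86, adjusted p = 0.0121, limma). Over all genes 12.3% fell. The list summed to 847 to 1106 at 5 months and to 610 to 898 at 30 months, an overlapping range, and its part in the fall of Kif9 was not tested. Kif6, Kif7, Kif12, Kif26b and Kif27 were too dim to be tested, as were Kif1c and Klc3 of the transport families and the light chain gene Dynlrb2. In Kif1c, a close relative of Kif1b, signals of 73.4, 92.4, 87.2, 80.4 and 104 at 5 months met 74.2, 85.1, 83.2, 103 and 83.7 at 30 months, an almost complete overlap.

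Several motor genes were read by more than 1 probe set, and these did not always move together. When every tested probe set was fitted on its own, 19839 were tested, of which 29.8% were higher and 11.4% lower, and the 67 of motor genes gave 14 higher and 11 lower. In 16 genes at least 2 probe sets were tested. All of a gene's probe sets had the same call in 2 of them, Dync1li2 and Kif1a, some were called and some not in 7, none was called in 6, and Kif13a had calls in both directions.

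Kif5c had a probe set with a lower call beside a brighter probe set that did not pass. Probe set 1422945_a_at gave 1576, 1669, 1599, 1674 and 1625 at 5 months and 1210, 1136, 1114, 1312 and 1217 at 30 months, far below (−0.45 ± 0.05, SE; adjusted p = 6.07e-05, limma). The brighter probe set described above did not fall, and the ratio of the first to it fell by 0.54 on the log2 scale (p = 0.00794, exact permutation test; 0.0363 after Benjamini-Hochberg adjustment over 32 such ratios). For Kif13a, probe set 1442252_at gave 169, 179, 200, 192 and 169 against 164, 130, 136, 138 and 121, a fall of every old mouse below the young mice (−0.41, adjusted p = 0.00444, limma) in a gene whose brightest probe set rose. With the mean of all tested probe sets, the change of Kif13a was −0.05 (adjusted p = 0.582, limma).

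Other probe sets rose where the brightest did not. For Kif1b, probe set 1451762_a_at gave 202, 258, 258, 154 and 226 against 346, 404, 304, 385 and 351, a clear separation (0.72, adjusted p = 0.00104, limma). For Dynll2, probe set 1418371_at gave 1696, 1730, 1916, 1668 and 1438 against 2037, 2444, 2196, 2214 and 2202, also separated (0.40, adjusted p = 0.000919, limma). Of the 32 ratios between a gene's probe sets, 7 in 6 genes differed between the ages without overlap, from −0.66 for Kif13a to 0.72 for Kif1b, with −0.20 for the second probe set of Kif3c. The same count was not taken over the other genes on the array, so whether motor genes differ from them here is not known. The suffix a_at marks a probe set shared by several transcripts of a gene, and which transcripts each probe set reads was not analysed here.

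**Figure D5:**
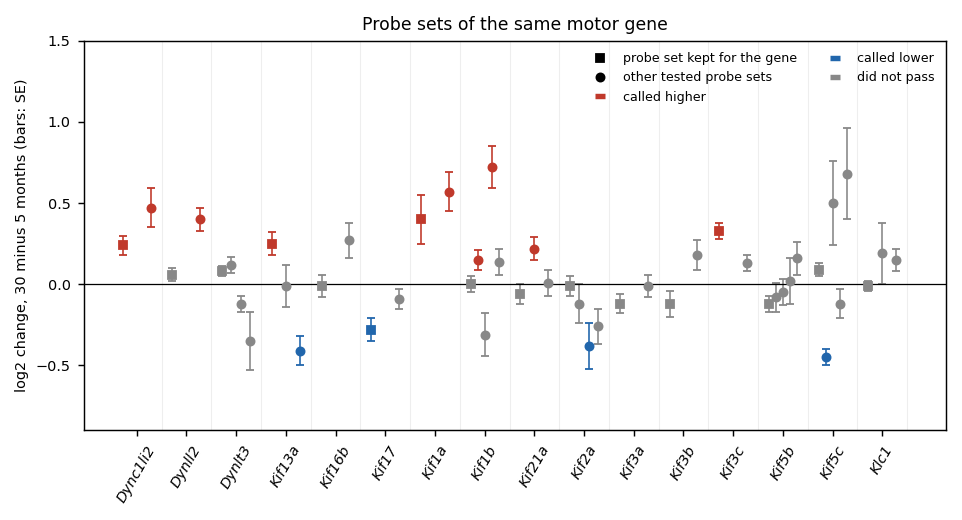
Log2 change, 30 months minus 5 months, of each tested probe set in the 16 motor genes with more than 1, with the standard error as bars, 5 arrays at each age. Squares mark the probe set kept for the gene and circles the others. Kif13a has calls in both directions, and Kif5c, Kif1b, Dynll2, Kif21a and Kif2a have a called probe set beside a kept one that did not pass.

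Motors act with partner proteins. Dynactin, the complex that couples dynein to cargo, had 12 tested genes, of which 6 rose and 2 fell, with a median change of 0.12 beside 0.08 over all genes, where 34.0% rose and 12.3% fell. Of the dynactin genes 5 were higher and 2 lower under quantile normalization (median 0.05), and 3 and 2 with the common median of the tested genes (median 0.02). Over all genes 22.9% were higher and 20.4% lower under quantile normalization, and 21.2% and 23.9% with the common median. Capza1, a capping subunit of its filament, changed most (0.76, adjusted p = 6.69e-06), Dctn4 and the filament subunit Actr1a rose by 0.40 and 0.35 (adjusted p = 0.000961 and 0.000943), and Actr1b, a second form of the filament subunit, fell by 0.32 (adjusted p = 0.00212, all limma). The Capza1 probe set has the suffix x_at and may also bind other transcripts. Of 10 tested regulators and adaptors of dynein 2 rose and 1 fell, with 1 higher and 3 lower under quantile normalization and 0 higher and 2 lower with the common median. The gene that fell was Pafah1b1, which encodes the dynein regulator Lis1 (−0.14, adjusted p = 0.00986, limma), and those that rose were Nde1, a partner of Lis1 (0.29, adjusted p = 0.0356), and the adaptor gene Rab11fip3 (0.21, adjusted p = 0.0181).

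Of 26 tested kinesin adaptors 12 rose and 3 fell with the deposited scaling, where 34.0% and 12.3% of all genes did. Their median was 0.13, beside 0.08 over all genes. The median was 0.03 under both other scalings, with 8 higher and 3 lower under quantile normalization and 8 higher and 4 lower with the common median of the tested genes. Beside these counts, 22.9% of all genes were higher and 20.4% lower under quantile normalization, and 21.2% and 23.9% with the common median. Mapk8ip1, a scaffold protein that binds kinesin-1 light chains, gave 794, 871, 1177, 825 and 602 at 5 months and 1621, 1984, 1391, 1651 and 1797 at 30 months. Every old mouse was far above the young mice (1.01 ± 0.14, SE; fold 2.01, adjusted p = 0.00012, limma). Its relative Mapk8ip3 rose by 0.36 (adjusted p = 0.000107), Kidins220, a membrane protein carried by kinesin-1, by 0.34 (adjusted p = 9.33e-05) and the liprin gene Ppfia3, which belongs to a family of synaptic scaffolds bound by Kif1a, by 0.51 (adjusted p = 0.000221, all limma). Of 2 tested kinesins outside the naming rule, Kifc2, a neuronal motor of the minus-end-directed family, fell by 0.33 (adjusted p = 0.008, limma), with 30-month mouse 2 inside the young range.

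Cell type markers gave the setting of these bulk values, and over all genes tested 34.0% rose and 12.3% fell. Of 12 neuronal markers 2 rose and none fell with the deposited scaling, while 2 were lower under quantile normalization and 5 with the common median of the tested genes. Under these 2 other scalings 20.4% and 23.9% of all genes were lower. Of 8 astrocyte markers 7 rose and none fell, and their summed signal was 15495 to 17436 at 5 months and 20578 to 22103 at 30 months, without overlap. With the common median of the tested genes 5 of the 8 rose, beside 21.2% of all genes. The oligodendrocyte markers gave 3 rises of 8 tested, the microglia markers 4 rises and 2 falls of 7, and the endothelial markers 2 rises of 4. The part of these markers in the rises of the transport motors was not tested.

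The authors' deposited table compared the ages with criteria of its own. It asked that the lower bound of the fold, up or down, exceed 1.2 and that p not exceed 0.1. Of the 45037 probe sets in the authors' deposited table, 4034 met them (8.96%), and 14 of the 126 of motor genes did (11.1%). Only 6 of these 14 were bright enough to be tested here. The authors' deposited table listed Dync1li1 at a fold of 1.66, the second Kif1a probe set at 1.48 and the Kif1b probe set 1451762_a_at at 1.62. Among falls, the authors' deposited table listed the Kif5c probe set 1422945_a_at at −1.35, Kif4 at −1.84 and Kif13b at −1.91.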

How the data were processed

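Neocortex RNA of 10 male mice, 5 of 5 months and 5 of 30 months, was measured on 1 array per mouse. The deposited values are linear intensities per probe set, and the submitters' processing notes name GCOS without a version. How the authors corrected the background, summarized probes and scaled arrays was not given in the sources used here. A second deposited table held the same intensities and, per the file headers, the authors' own comparison, in which each probe set has a signed fold (a score, negative where lower), bounds of it and a p-value.

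Names came from gene identifiers (36239 probe sets) or accessions (60), updated with the GRCm38.p6 gene table. Another 1261 probe sets with several genes and 7477 with none were left out, among them 6 of motor genes. Intensities under 1 (55 values) were set to 1, and all values were analysed as log2 without rescaling. A probe set was tested where its mean log2 over all arrays exceeded 6.89, and each gene kept its brightest tested probe set. Genes were fitted with limma 3.58.1 (R 4.3.3) on age alone, two-sided and with a trend of variance on mean signal, and p-values were adjusted by Benjamini-Hochberg over all 11963 genes. The fit was tested on simulated data. Ratios within arrays were compared by exact permutation over 252 arrangements. Tables and figures used matplotlib 3.10.9, pandas 2.3.3 and numpy 2.4.6 in Python 3.11.15.

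All motor genes could be named whatever their values, and of the other transport, division and cilia lists those called with the 4 smallest adjusted p, while the markers and the subunit Kifap3 outside that rule are named for context. The members and the lists were chosen with earlier results of these data known. Alternatives covered scaling, offsets, filters, ways to combine probe sets, variance models, array weights, fits without each array in turn and a replicate block. Precision is limited by the number of arrays, with a median standard error of 0.06 (log2) among motor genes. Each array is a separate mouse, and p-values measure the spread between mice.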

Additional observations from a re-analysis of the deposited data

Results flagged for a closer look

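In 3 of 134 groups of 5 arrays, over the 67 tested probe sets of motor genes, 1 mouse stood apart from the other 4 by Dixon's test (critical value 0.71), where chance gives about 1 in 20. All 3 concern probe sets that were not the ones kept for the gene, and none of the 70 groups of kept probe sets showed such a mouse. For Dync1li2, probe set 1433926_at, 30-month mouse 2 was the lowest with 1273 against 1591 in the next mouse (Dixon's ratio 0.731). For Dynlt3, probe set 1459854_s_at, 30-month mouse 4 was the lowest with 3211 against 3621 (0.801). For Kif13a, probe set 1451890_at, 5-month mouse 5 was the lowest with 134 against 187 (0.718).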

How the results depend on the processing

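With the deposited scaling 8 motor genes were higher and 8 lower, and of the 16 called genes 9 kept direction and call under each of the 24 alternatives that gave a value for them, namely Dync1h1, Dync1li1, Kif3c, Kif21b, Kif13b, Kif17, Kif4, Kif22 and Kif18b. Leaving out x_at and s_at probe sets is no check of Kif22, whose x_at probe set is its only tested one and was kept. The other 7, Kif1a, Kif24, Dync1i2, Kif9, Klc2, Dync1li2 and Kif13a, lost their call under at least 1. Over the 380 values of single genes, 346 kept direction and call, 33 kept only the direction and 1 reversed, which was Kif13a at −0.05 with the mean of all its tested probe sets. Quantile normalization gave 16 lower motor genes, 8 of them transport motors, and a median change of −0.101 instead of −0.028. The same median of the tested genes on each array, an alternative added after seeing the data, gave 4 higher and 19 lower motor genes, 4 higher and 10 lower transport motors and a median of −0.129. A filter at a mean log2 above 8 left 5 lower motor genes, array weights gave 6 lower transport motors instead of 3, and no filter gave 2 higher mitotic kinesins instead of 0. Leaving out each array in turn gave 7 to 9 higher and 7 to 9 lower motor genes, 7 to 9 higher and 3 to 4 lower transport motors, 3 to 4 lower and 0 higher mitotic kinesins, and a median change from −0.046 to −0.012. The cause of these shifts was not tested.

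Mouse numbers 2 to 5 occur at both ages, and a fit with the number as a replicate block over these 8 mice gave 5 lower motor genes, while the same 8 mice without a block, added after seeing the data, gave 6. Correlations between arrays of the same number were −0.33, −0.04, 0.08 and 0.11, within the −0.44 to 0.41 of arrays with different numbers. So few values cannot decide whether equal numbers share a litter or batch, and the labels do not say. Signals below the filter limit what can be said of the 9 dim mitotic kinesins.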
